A study of Homo sapiens with 90 samples.

Results

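HepG2, an established human liver tumour line, was exposed in 96-well plates for 24 h to the azole fungicides imazalil or fenbuconazole, to the herbicide 2,4-D, or to the DMSO vehicle. Each compound was given at 9 doses between 0.001 and 10 µM with 3 arrays per dose, and all wells held 0.2% DMSO. The comparison described here sets the 3 arrays of imazalil 10 µM against the 3 arrays of fenbuconazole 10 µM, 6 of the 84 different arrays of the series, with 3 DMSO arrays that served every compound as the zero point. The arrays were chosen by their titles alone, with no measured value used. The labels do not say whether replicates were separate cultures, so the p-values measure the spread between these samples, which may be technical. HepG2 is a single tumour line and stands for liver cells only as far as such a line can.

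Imazalil carries an imidazole ring and fenbuconazole a triazole ring, and both belong to the azole fungicides, which bind the haem iron of fungal lanosterol demethylase. The human form of that enzyme is CYP51A1, one step of cholesterol synthesis. When a cell senses low sterol, the transcription factor SREBP2 is released to the nucleus and raises the genes of the whole pathway, often together with the CCAAT-binding factor NF-Y. Many planar ligands act through another route: they bind the aryl hydrocarbon receptor (AHR), which enters the nucleus and switches on CYP1A1, a cytochrome P450 that oxidizes aromatic compounds. Azoles can also act on the receptors PXR and CAR, which control drug-metabolizing enzymes of the liver.

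The stretches of 250 bases before the annotated start of the most prominent gene of the AHR route and of 2 cholesterol genes described below are shown from RefSeq (GRCh38.p14), each on the gene's own minus strand, 5′ to 3′. Capitals mark GCGTG, the core of the AHR response element, in CYP1A1 (chr15:74725529-74725778), and CCAAT or its other strand ATTGG, the letters NF-Y binds, in HMGCS1 (chr5:43313413-43313662) and LSS (chr21:46228775-46229024).
CYP1A1: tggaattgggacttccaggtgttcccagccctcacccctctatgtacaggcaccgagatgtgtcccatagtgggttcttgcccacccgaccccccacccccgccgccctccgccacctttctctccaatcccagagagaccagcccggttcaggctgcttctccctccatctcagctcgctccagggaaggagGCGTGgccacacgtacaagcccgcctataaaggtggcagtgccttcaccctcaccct
HMGCS1: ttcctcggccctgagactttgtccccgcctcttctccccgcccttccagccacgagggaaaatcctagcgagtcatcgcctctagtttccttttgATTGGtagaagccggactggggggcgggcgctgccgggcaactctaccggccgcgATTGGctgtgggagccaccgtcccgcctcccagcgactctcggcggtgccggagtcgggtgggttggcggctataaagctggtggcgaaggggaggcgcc
LSS: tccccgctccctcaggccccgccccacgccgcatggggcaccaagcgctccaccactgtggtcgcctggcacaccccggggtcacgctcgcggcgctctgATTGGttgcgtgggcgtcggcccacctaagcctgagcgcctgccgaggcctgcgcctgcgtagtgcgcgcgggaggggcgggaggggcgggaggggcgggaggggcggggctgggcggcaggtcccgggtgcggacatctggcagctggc

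CYP1A1 held GCGTG once, beginning 57 bases before the start. Searched on both strands, these letters stood in 32.2% of all 35116 windows of this length in the table. CCAAT began 155 and 100 bases before the start of HMGCS1, in the farther upstream of its 2 windows, and 150 bases before that of LSS, and it stood in 32.0% of all windows. Counting a gene once if any of its windows held the letters, CCAAT was found for 14 of the 16 measured cholesterol synthesis genes that the table lists, against 37.0% of its 27305 genes. GCGTG was likewise found for 14 of the 16, against 36.2% of genes, and CACCCCAC, letters of a sterol response element, for 0 of the 16, against 2.97%. Matches describe letters only. Each stretch has 1 motif marked, and the stretches of CYP1A1 and LSS also hold the other motif in lower case.

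The cells carried the liver markers that define the line. The 11 measured hepatocyte markers, among them albumin and alpha-fetoprotein, had mean levels from 10.03 to 13.18 with imazalil and from 10.06 to 13.06 with fenbuconazole (log2 intensity). The 9 markers of blood and endothelial cells lay between 2.68 and 3.54 and between 2.61 and 3.28 in the same order, which is the level of dim probe sets. Of 9 mesenchymal markers only COL1A1 (4.13 and 4.20) and ACTA2 (7.90 and 7.94) were above 4, and VIM was near the floor (2.52 and 2.59). Across genes, themselves no replicates, arrays of one compound at 10 µM correlated at r = 0.99416 to 0.99653. The number of arrays limits the precision.

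The spread of the arrays moved with the compound, and so did the median before DMSO was taken into account. The interquartile range of an array's log2 values was 4.505, 4.558 and 4.541 with imazalil, against 4.496, 4.415 and 4.419 with fenbuconazole. The array median was 2.988, 2.960 and 2.958 with imazalil, against 2.993, 3.047 and 3.037 with fenbuconazole. Neither measure overlapped between the groups, and for both the exact two-sided permutation p was 0.10, the smallest that 3 against 3 arrays allow. The DMSO arrays had a mean interquartile range of 4.471 in the imazalil set and 4.477 in the fenbuconazole set. Their array medians averaged 2.994 and 3.009 in the same order. Less the DMSO mean of its own set, the exact permutation p was 0.10 for the interquartile range and 0.20 for the median. For ACTB, the control probe sets at the 3′ end exceeded those at the 5′ end by 0.465 ± 0.069 with imazalil and 0.321 ± 0.115 with fenbuconazole (log2, SD, n = 3 each, exact permutation p = 0.20), and that of GAPDH was -0.109 ± 0.033 and -0.116 ± 0.036 in the same order (exact permutation p = 1.00). Bright genes tended to lie higher and dim genes lower with imazalil: 40% of the 7154 genes with a mean above 6 were below 0, with a median difference of 0.03, against 64.9% of the 9962 genes with a mean up to 4 and a median of -0.05 (log2).

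At 10 µM the compounds differed in 8 of 19774 genes, 0.0405% of those tested, with 4 higher and 4 lower with imazalil (0.0202% each way; limma, Benjamini-Hochberg adjusted p under 0.05). The count and the split depended on the scaling: joint quantile normalization gave 41 higher and 75 lower, and no DMSO subtraction 32 higher and 117 lower, each with 6 of the 8 among them. CYP1A1 and MCC, a regulator of cell cycle and Wnt signalling, had the largest differences of the 8, followed by NHEG1, KCNJ10, SPON2, ARID5B, SLC17A5 and TACC1. At an unadjusted p under 0.05 there were 1956 genes (9.89%, of which 4.98% higher and 4.92% lower). From 0.001 to 3 µM that share was 4.31, 4.96, 6.51, 6.76, 7.59, 2.93, 5.45 and 4.94% dose by dose, and 0 genes passed the threshold in limma at any of these 8 doses. The larger share at 10 µM depended on the array spread. With the array interquartile range as a covariate, 1174 genes had an unadjusted p under 0.05 at 10 µM, against 1230 at 3 µM and 1328 at 1 µM (limma). In 7.91% of genes the imazalil arrays all lay above the fenbuconazole arrays, and in 8.26% all below. Leaving out any one of the 6 arrays gave between 3 and 13 genes, and a fit of these 6 arrays alone gave 2, MCC and CYP1A1. Differences ran from -0.64 to 1.36 on the log2 scale, 138 genes (0.698%) differed by more than 0.5 and 1 gene, CYP1A1 (0.00506%), by more than 1. The median half-width of the 95% interval was 0.24, and for 16741 genes (84.7%) the whole interval lay within 0.5 of 0, for 19700 genes (99.6%) within 1.

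**Figure D1:**
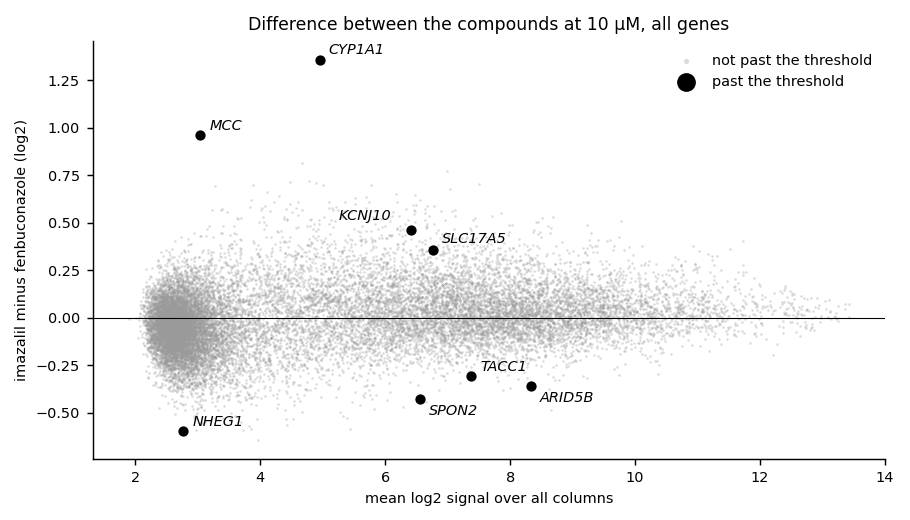
Difference between imazalil and fenbuconazole at 10 µM (log2, DMSO-centred, vertical axis) against the mean log2 signal over all columns (horizontal axis), 1 point per gene. The 8 labelled black points passed the threshold, and MCC and NHEG1 lie among the dim genes on the left.

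CYP1A1 (Entrez gene 1543) was induced by both azoles and more strongly by the imidazole. Relative to DMSO it stood at 2.86, 2.94 and 3.24 with imazalil, against 1.30, 1.80 and 1.86 with fenbuconazole (log2), while the 3 arrays of 2,4-D 10 µM lay between -0.04 and 0.13. Every imazalil array was above every fenbuconazole array. The difference was 1.36 ± 0.22 (SE, adjusted p = 0.00279), that is 2.57-fold with a 95% interval from 1.88 to 3.5. Each compound also passed the threshold against DMSO, with a log2 change of 3.01 ± 0.21 for imazalil (adjusted p = 2.07e-09) and 1.66 ± 0.22 for fenbuconazole (adjusted p = 5.49e-04). At 3 µM CYP1A1 averaged 1.93 ± 0.32 with imazalil and 0.84 ± 0.23 with fenbuconazole (SD, n = 3 each). The difference was 1.09 (limma, unadjusted p = 1.57e-05, adjusted p = 0.155). The 3 µM comparison shares its DMSO zero point and its variance estimate with that at 10 µM. At 1 µM the averages were 1.15 ± 0.20 and 0.45 ± 0.41, a difference of 0.70 (limma, unadjusted p = 0.00294). Without imazalil replicate 3 the 10 µM difference missed the threshold (adjusted p = 0.0535).

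The other AHR targets gave smaller differences, in both directions. Of 11 measured, 9 were above 0, against 47% of all genes, and the median was 0.09, but only CYP1A1 passed the threshold. At 3 and 1 µM the median of the 11 was -0.016 and 0.003. TIPARP, an AHR-induced ADP-ribosyltransferase that feeds back on the receptor, was 0.15 above DMSO with imazalil and 0.07 with fenbuconazole, a difference of 0.08 ± 0.08 (adjusted p = 0.757). For NQO1, a quinone reductase, the difference was 0.02 ± 0.05 (adjusted p = 0.923). CYP1A2, CYP1B1 and AHRR, classic targets, had mean levels of 3.88, 2.81 and 2.62 and differences of 0.14, -0.03 and 0.12, so the array gave little signal for them. ALDH3A1, an aldehyde dehydrogenase, was dim as well (3.14) and went the other way, at -0.33 ± 0.16 (adjusted p = 0.494). NFE2L2, which encodes the oxidative stress factor NRF2, was bright and differed by 0.20 ± 0.09 (adjusted p = 0.475).

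**Figure D2:**
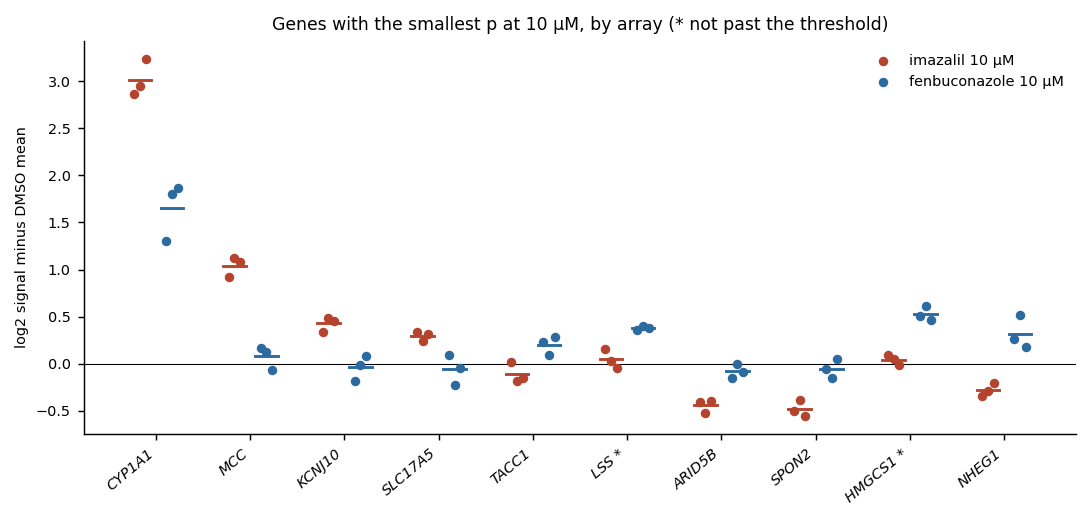
Log2 signal minus the DMSO mean for the 10 genes with the smallest p at 10 µM, 1 point per array and a bar for the mean of 3, imazalil left of fenbuconazole for each gene. Imazalil and fenbuconazole arrays did not overlap in any of the 10, which the choice by small p on these arrays favours. Of all genes, 7.91% lay higher and 8.26% lower with imazalil without overlap. Genes with an asterisk (LSS and HMGCS1) did not pass the threshold.

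MCC (Entrez gene 4163) rose with imazalil (adjusted p = 1.34e-04 against DMSO) and did not pass with fenbuconazole (adjusted p = 0.999). The imazalil arrays stood at 0.92, 1.12 and 1.08 above DMSO, against 0.17, 0.13 and -0.06 for fenbuconazole (log2), a difference of 0.96 ± 0.14 (adjusted p = 2.94e-04). The groups did not overlap. The level was 3.99 with imazalil, against 3.13 with fenbuconazole and 2.95 and 3.05 in the DMSO arrays of the imazalil and fenbuconazole sets, where the signal is that of dim probe sets, so no fold is given. Up to 3 µM no mean of either compound was farther than 0.20 from DMSO, and the 10 µM difference exceeded that at the 3 lowest doses by 1.12 (adjusted p = 2.65e-04). MCC was the only gene to pass that comparison (0.00506%), in which 5.52% of genes had an unadjusted p under 0.05, and 0 genes passed for the slope with dose, where 5.67% did. The probe set was dim, with a mean of 3.04 over all columns, and the gene's other probe set, dimmer still at 2.88, differed by 0.20 with overlapping groups.

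SPON2, ARID5B and KCNJ10 differed between the compounds and also changed against DMSO with imazalil. SPON2, which encodes the secreted matrix protein spondin 2, stood at -0.50, -0.38 and -0.55 with imazalil, against -0.06, -0.15 and 0.05 with fenbuconazole, a difference of -0.43 ± 0.08 (adjusted p = 0.00991). ARID5B, a DNA-binding protein that recruits histone demethylase activity, stood at -0.40, -0.52 and -0.39 with imazalil, against -0.15, -0.01 and -0.09 with fenbuconazole, a difference of -0.36 ± 0.07 (adjusted p = 0.0103). KCNJ10, an inwardly rectifying potassium channel, stood at 0.34, 0.49 and 0.46 with imazalil, against -0.18, -0.01 and 0.08 with fenbuconazole, a difference of 0.47 ± 0.10 (adjusted p = 0.0417). The adjusted p of imazalil against DMSO was 0.0118, 9.42e-04 and 0.0385, and that of fenbuconazole was 0.999 for each. The comparison of imazalil with DMSO shares its arrays with that between the compounds. In none of the 3 did the groups overlap, which the choice by small p on these arrays favours. The difference of SPON2 depended on the zero point: its DMSO arrays read 6.71 in the imazalil set and 6.55 in the fenbuconazole set, and without DMSO subtraction it was -0.26 (adjusted p = 0.0878), after joint normalization -0.30 (adjusted p = 0.108). SPON2 also missed the threshold without imazalil replicate 3 or fenbuconazole replicate 3 (adjusted p = 0.143 and 0.161), and ARID5B without imazalil replicate 2, fenbuconazole replicate 2 or fenbuconazole replicate 3 (adjusted p = 0.169, 0.163 and 0.051). With each of the 6 arrays left out in turn, KCNJ10 passed in 1 of the 6 fits. The other probe set of KCNJ10 gave 0.52 without overlap, whereas the 4 other probe sets of ARID5B, all dimmer, ranged from -0.31 to 0.04.

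In the remaining 3 genes neither compound passed the threshold against DMSO. SLC17A5, the lysosomal sialic acid exporter, stood at 0.33, 0.24 and 0.32 with imazalil, against 0.09, -0.22 and -0.05 with fenbuconazole, a difference of 0.36 ± 0.07 (adjusted p = 0.0417). NHEG1 stood at -0.34, -0.29 and -0.20 with imazalil, against 0.26, 0.52 and 0.18 with fenbuconazole, a difference of -0.60 ± 0.12 (adjusted p = 0.0379, mean level 2.77). TACC1, a coiled-coil protein of centrosomes and microtubules, stood at 0.02, -0.18 and -0.15 with imazalil, against 0.23, 0.09 and 0.29 with fenbuconazole, a difference of -0.31 ± 0.06 (adjusted p = 0.0379). For SLC17A5 the mean difference was already 0.20 at the 3 lowest doses. For TACC1 the 5 other probe sets ranged from 0.02 to 0.21, opposite in sign, and with the mean of all its probe sets the difference was 0.01. The groups did not overlap in any of these 3 genes, which were also chosen by small p on these arrays. Each of the 3 missed the threshold when most single arrays were left out. SLC17A5 also missed it after joint normalization (0.24, adjusted p = 0.107) and without DMSO subtraction (0.28, adjusted p = 0.0574).

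The arrays at 3 µM repeat the comparison on other arrays that share the DMSO zero point and each gene's variance estimate. At an unadjusted p under 0.05 there were 4 of the 8 genes, CYP1A1, SPON2, KCNJ10 and SLC17A5, where 4.94% of all genes passed that limit. The 8 genes were chosen by a small p with that same variance, so the share of all genes is no even reference for them. The difference of SPON2 at 3 µM was -0.32 (limma, unadjusted p = 1.13e-04), that of KCNJ10 0.27 (unadjusted p = 0.00676) and that of SLC17A5 0.15 (unadjusted p = 0.0435). At the 3 lowest doses the mean differences of these 3 genes were -0.04, 0.01 and 0.20 in the same order. For MCC, ARID5B, TACC1 and NHEG1 the differences at 3 µM were 0.15, 0.05, -0.06 and -0.02. Adjusted over all genes none of the 8 passed at 3 µM. With the array interquartile range as a covariate, MCC, CYP1A1, SPON2 and ARID5B passed in limma (adjusted p = 0.000885, 0.000704, 0.043 and 0.043), and the other 4 had an adjusted p from 0.128 to 0.144.

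**Figure D3:**
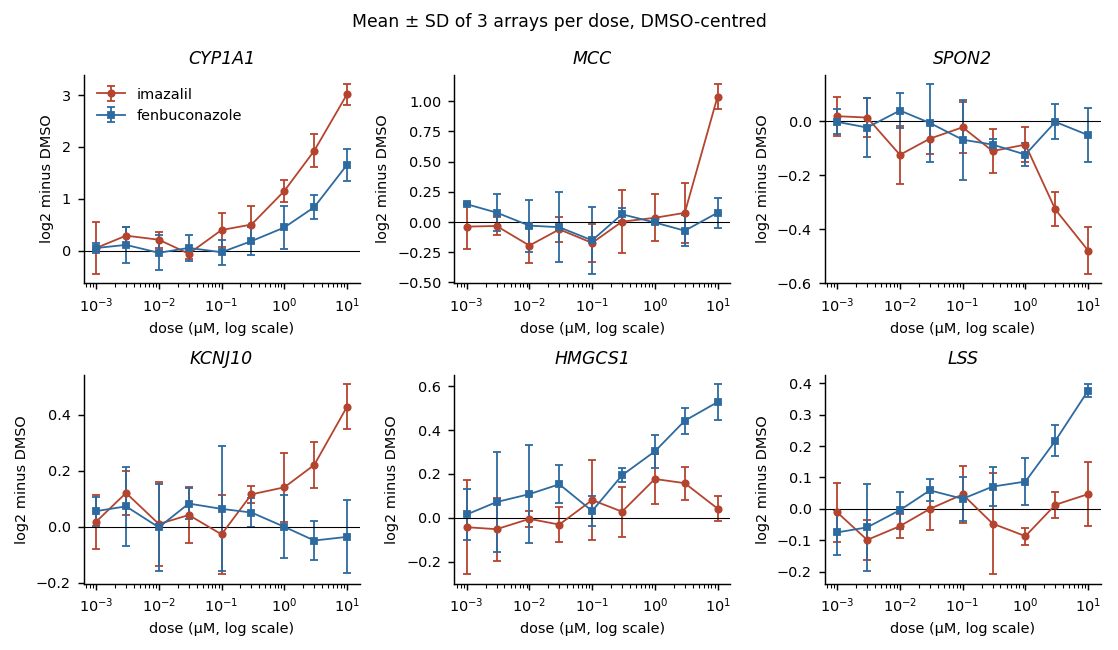
DMSO-centred log2 signal (vertical axes, different scales) against dose (µM, log scale) for 6 genes, points and bars giving the mean and SD of 3 arrays for imazalil (circles) and fenbuconazole (squares). CYP1A1 separates the compounds from 1 µM, MCC at 10 µM alone, and HMGCS1 and LSS lie higher with fenbuconazole at 3 and 10 µM.

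The genes of cholesterol synthesis lay lower with imazalil than with fenbuconazole as a group, and none passed the threshold. Of 21 genes listed, 18 were measured, and 16 of them were below 0 with a median difference of -0.21, against 53% of all genes and a median of -0.01. An unadjusted p under 0.05 was found for 11, all lower, where 4.92% of all genes were lower at that level. In 9 of the 18 all imazalil arrays lay below all fenbuconazole arrays, against 8.26% of all genes. Relative to DMSO the median of the 18 was 0.06 with imazalil and 0.25 with fenbuconazole. Most of these genes are bright, and all genes with a mean above 6 had a median of 0.03. The cause of the lean was not tested. With the array interquartile range as a covariate all 18 were below 0, with a median of -0.19. HMGCS1 and LSS passed when only genes with a mean above 4 were tested (adjusted p = 0.0253 and 0.0207), and 5 of the 18, HMGCS1, MVD, LSS, EBP and HSD17B7, passed after joint normalization and without DMSO subtraction, where many more genes passed overall.

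In the mevalonate arm, HMGCS1, the synthase that makes the HMG-CoA of the pathway, stood at 0.09, 0.05 and -0.02 with imazalil, against 0.50, 0.62 and 0.46 with fenbuconazole. Its difference was -0.49 ± 0.10 (95% interval -0.70 to -0.28, adjusted p = 0.0637). MVD, which decarboxylates mevalonate diphosphate, stood at 0.21, 0.18 and 0.05 with imazalil, against 0.58, 0.80 and 0.43 with fenbuconazole, a difference of -0.46 ± 0.14 (adjusted p = 0.297). The DMSO arrays of MVD read 5.31 in the imazalil set and 5.62 in the fenbuconazole set, and its difference was -0.76 without DMSO subtraction (adjusted p = 0.00382) and -0.80 after joint normalization (adjusted p = 0.00718). Both genes were clear of overlap, with fenbuconazole above. IDI1, which isomerizes the isoprene unit, differed by -0.21 ± 0.08 (adjusted p = 0.377), while ACAT2 and GGPS1, at the entry and on a side branch of the pathway, both differed by -0.05, with overlapping groups.

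In the sterol arm, LSS, the cyclase that closes the first sterol ring system, stood at 0.15, 0.03 and -0.05 with imazalil, against 0.36, 0.40 and 0.38 with fenbuconazole, a difference of -0.33 ± 0.07 (95% interval -0.47 to -0.19, adjusted p = 0.0718). CYP51A1, the human counterpart of the fungal target, stood at 0.02, 0.08 and 0.01 with imazalil, against 0.29, 0.44 and 0.15 with fenbuconazole, a difference of -0.26 ± 0.09 (adjusted p = 0.328). EBP and HSD17B7, later enzymes of the arm, differed by -0.22 ± 0.06 and -0.28 ± 0.08 (adjusted p = 0.27 and 0.272). These 4 genes did not overlap between the groups. MSMO1, the methylsterol oxidase, and NSDHL, which acts with it, were the exceptions above 0, at 0.08 ± 0.12 and 0.04 ± 0.10.

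The lean of the pathway depended on which probe set represented a gene. The 19 other probe sets of 12 of these genes had a median difference of -0.01 and 11 were below 0. Among the 8 of them with a mean above 6, 5 were below 0, with a median of -0.03. The other probe set of HMGCS1, nearly as bright at 8.39, stood at 0.32 with imazalil and 0.29 with fenbuconazole, a difference of 0.03, and that of CYP51A1 differed by 0.29 with overlapping groups (0.02 for the mean of its probe sets), whereas another probe set of LSS differed by -0.56 without overlap. With the mean of all probe sets per gene, 15 of the 18 genes were below 0 and their median was -0.09.

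By dose, the median of the 18 genes relative to DMSO was -0.02, 0.02 and 0.06 with imazalil at 1, 3 and 10 µM, against 0.09, 0.17 and 0.25 with fenbuconazole. By array it was 0.10, 0.10 and -0.01 with imazalil 10 µM, against 0.30, 0.28 and 0.17 with fenbuconazole 10 µM. At 3 µM 17 of the 18 genes were below 0 between the compounds, with a median of -0.18, and at 0.001 µM 7 were, with a median of 0.03. The 18 genes share arrays and a common DMSO zero point, so they are not independent of each other.

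**Figure D4:**
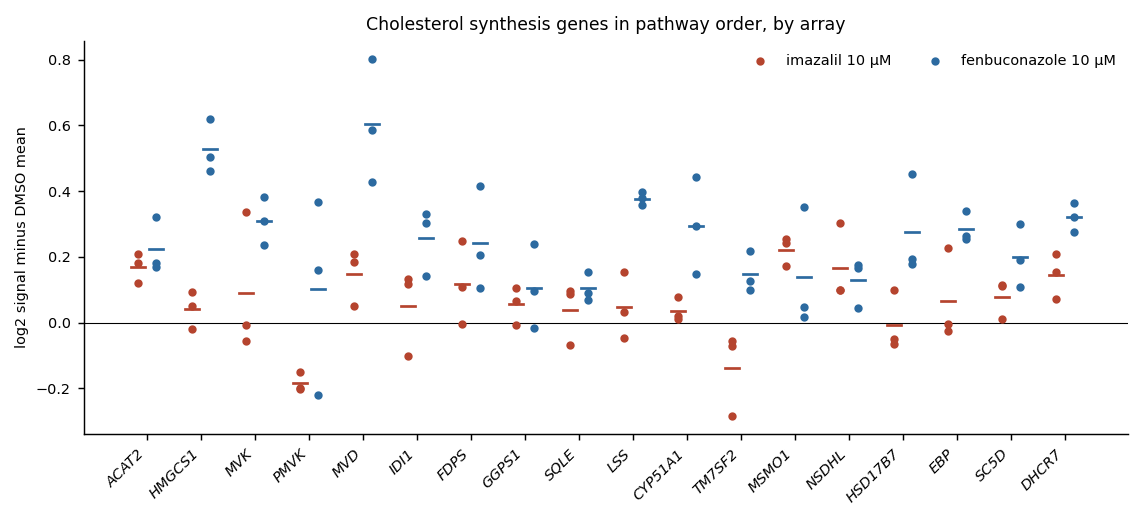
Log2 signal minus the DMSO mean for the 18 measured cholesterol synthesis genes in approximate pathway order, 1 point per array and a bar for the mean of 3, imazalil left of fenbuconazole. Fenbuconazole lies higher in 16 of the 18 genes, with no overlap in 9, and none passed the threshold.

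Neighbouring lipid genes had medians nearer 0. Of 19 genes of fatty acid and triglyceride synthesis 14 were below 0, against 53% of all genes, with a median of -0.07, and 0 passed. PNPLA3, a lipase of lipid droplets that SREBP1 raises, stood at 0.14, 0.06 and -0.07 with imazalil, against 0.53, 0.64 and 0.38 with fenbuconazole, a difference of -0.47 ± 0.11 (adjusted p = 0.126). ACSS2, which makes acetyl-CoA from acetate, was the single lipid gene past the threshold against DMSO, at 0.56 ± 0.09 with fenbuconazole (adjusted p = 0.0201) and 0.18 ± 0.13 with imazalil (adjusted p = 0.892). Its difference between the compounds was -0.38 ± 0.12 (adjusted p = 0.297). FADS2, a fatty acid desaturase, differed by -0.41 ± 0.10 (adjusted p = 0.188), but its partner FADS1 by -0.04 ± 0.06. INSIG1, which retains SREBP in the endoplasmic reticulum, was dim here (mean 2.97) and differed by -0.15 ± 0.13.

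The targets of the receptors of drug metabolism gave no gene past the threshold. The 13 measured PXR and CAR targets had a median of 0.01, with 7 above and 6 below 0. CYP3A4, the main drug-oxidizing enzyme of liver and a PXR target, differed by -0.11 (95% interval -0.34 to 0.12), and CYP2B6, a CAR target, by 0.02 (interval -0.31 to 0.36), both from dim probe sets, and both signs turned under some alternatives. For CYP3A4 the DMSO arrays read 3.56 in the imazalil set and 3.92 in the fenbuconazole set, and the difference was -0.48 without DMSO subtraction (adjusted p = 0.036) and -0.46 after joint normalization (adjusted p = 0.0599). ALAS1, the rate-limiting enzyme of haem synthesis, stood at 0.50, 0.55 and 0.51 with imazalil, against 0.28, 0.27 and 0.08 with fenbuconazole, and SULT2A1, a hydroxysteroid sulfotransferase, at 0.52, 0.51 and 0.38, against 0.11, 0.45 and 0.10. Both rose against DMSO with imazalil (adjusted p = 0.00784 and 0.0256). The differences between the compounds were 0.31 ± 0.08 (adjusted p = 0.242) and 0.25 ± 0.10 (adjusted p = 0.388).

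A total of 21 genes passed against DMSO with imazalil, 10 higher and 11 lower (0.106% of those tested), and 3 with fenbuconazole (0.0152%), with CYP1A1 in both. At an unadjusted p under 0.05 the shares were 5.97% and 4.74%. Fitted on the arrays compared alone, the counts were 2 and 0. Both comparisons use the same DMSO arrays. Of the 21, 5 also passed between the compounds: CYP1A1, MCC, SPON2, ARID5B and KCNJ10. Both tests use the same imazalil 10 µM arrays and the same DMSO arrays, so this overlap is no independent support. TXNIP, which restrains glucose uptake and thioredoxin, stood at -0.97, -0.62 and -0.97 with imazalil, against -0.71, -0.30 and -0.42 with fenbuconazole. Its groups overlapped, and the difference of -0.38 ± 0.10 did not pass (adjusted p = 0.216), while 2 other probe sets gave -0.41 and -0.48 without overlap. The mean difference of TXNIP was already -0.18 at the 3 lowest doses, and it was -0.06 at 3 µM. At 10 µM its relative ARRDC4 showed no such gap, at -0.57, -0.57 and -0.80 with imazalil, against -0.64, -0.74 and -0.74 with fenbuconazole. The difference of ARRDC4 was 0.06 (95% interval -0.20 to 0.32), or -0.05 under joint normalization and -0.004 without DMSO subtraction. At 3 µM, however, ARRDC4 differed by -0.37 (limma, unadjusted p = 0.0063, adjusted p = 0.949).

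Several other genes lowered by imazalil lay between DMSO and imazalil with fenbuconazole. DKK1, a secreted Wnt antagonist, stood at -0.55, -0.45 and -0.53 with imazalil, against -0.32, -0.34 and -0.28 with fenbuconazole, a difference of -0.20 ± 0.05 (adjusted p = 0.242). SGK1, a serum and glucocorticoid induced kinase, differed by -0.26 ± 0.06 (adjusted p = 0.0913), CCN2, a matrix protein and YAP target, by -0.23 ± 0.08 (adjusted p = 0.319), and BNIP3L, a mitophagy receptor, by -0.41 ± 0.10 (adjusted p = 0.116). In all 4 the imazalil arrays lay below all fenbuconazole arrays, as in 8.26% of all genes, and the 4 were named for a small p on these arrays. The other probe set of BNIP3L, nearly as bright at 8.17, differed by -0.125, also without overlap. DKK1, SGK1 and BNIP3L passed after joint normalization (adjusted p = 0.0315, 0.024 and 0.0244) and without DMSO subtraction (adjusted p = 0.0267, 0.0108 and 0.0223), as did TXNIP (adjusted p = 0.0464 and 0.0284), PNPLA3 (0.0417 and 0.0485) and FADS2 (0.0383 and 0.0284). CYP24A1, which degrades vitamin D, and HAMP, which encodes the iron hormone hepcidin, lay higher with imazalil by 0.43 ± 0.13 and 0.29 ± 0.10 (adjusted p = 0.274 and 0.354). At the 3 lowest doses their mean differences were 0.005 and 0.13 in the same order.

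**Figure D5:**
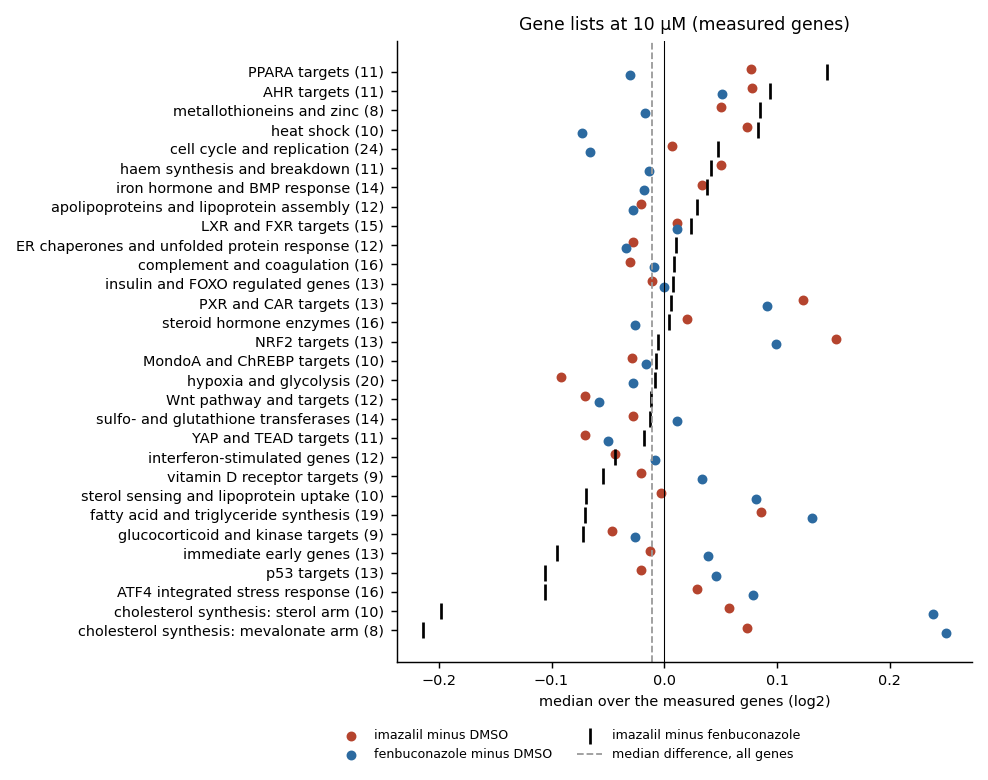
Median over the measured genes of 30 gene lists at 10 µM (log2): imazalil minus DMSO, fenbuconazole minus DMSO and, as ticks, imazalil minus fenbuconazole, with the number of measured genes in brackets and the median difference of all genes as a dashed line. The 2 cholesterol lists lie lowest, at -0.21 and -0.20, and PPARA targets highest, at 0.14.

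Across the 30 lists, 366 of 387 different genes were measured, and CYP1A1 was the only listed gene to pass between the compounds. PPARA targets had the highest median, 0.14, with 9 of 11 above 0, against 47% of all genes. At 3 and 1 µM the median of this list was -0.015 and 0.002. Among the 9 was CPT1A, the gatekeeper of mitochondrial fatty acid oxidation (0.25 ± 0.12, limma, adjusted p = 0.47). Cell cycle and replication genes had 16 of 24 above 0 and a median of 0.05. Most of these are bright, and of all genes with a mean above 6 only 40% were below 0, with a median of 0.03. Targets of p53 and immediate early genes each had 10 of 13 below 0, against 53% of all genes, with medians of -0.11 and -0.10. Among 20 hypoxia and glycolysis genes 6 lay lower without overlap, against 8.26% of all genes, but 10 were above and 10 below 0. Over the 22 alternatives the PPARA median ran from 0.01 to 0.20 and that of the cholesterol genes from -0.26 to -0.09.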

How the data were processed

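RNA of HepG2 cells was measured on Affymetrix expression arrays, per the labels. The authors deposited log2 probe set intensities, normalized by RMA within each compound's set, as the titles state. The submitters' processing notes name RMA and Partek; versions and the genome build are not given in the sources used here. Each set holds 30 columns, with copies of the same 3 DMSO arrays (r of at least 0.99862 between copies, at most 0.99613 between different DMSO arrays). The associated paper describes other cell lines, so only the labels inform the design.

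The table has 54715 probe sets. The annotation gives 1 symbol to 40914 of them and several to 864, does not list 12835, and 102 are controls. Symbols of 40858 were matched by Entrez identifier. The probe set brightest on average across the 90 columns stood for each of 19774 genes. From each column the mean of its own set's 3 DMSO columns was subtracted.

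limma 3.58.1 in R 4.3.3 (lmFit and eBayes, two-sided, Benjamini-Hochberg over all genes, threshold 0.05) was applied to the 54 treated columns of both compounds, with 18 group means and 36 residual degrees of freedom. The variance is therefore shared over all doses, and error in the DMSO mean, common to the columns of a set, is not part of it. Each compound was set against DMSO in the 30 columns of its set. On simulated data for the 10 µM difference, 200 of 19774 genes were shifted. Of those shifted by 0.5 log2, 69.0% were recovered, and of those shifted by 1, 99.0%, with 7 false calls. The simulated noise was independent between genes and held no difference in array spread, so these rates describe a simpler setting than the real arrays. With 200 genes shifted, the Benjamini-Hochberg limit on the unadjusted p is also laxer than where 8 genes pass. The rates are therefore no measure of recovery in the real comparison.

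Lists were described by counts and medians, without a set test. The members, lists and tests were chosen with earlier results of these data known. Named genes were the 10 of smallest p at 10 µM, up to 3 members of each list with an unadjusted p under 0.01, genes past the threshold against the lowest doses, and a set fixed by name; other list members and other probe sets were chosen after their values were seen. Of 387 listed genes 21 were not analysed here. Alternatives covered the samples fitted, a replicate block, the variance model, the array spread, the normalization, the zero point, the probe set rule, dim genes, and leaving out each replicate.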

Additional observations from a re-analysis of the deposited data

Results flagged for a closer look

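MCC was singled out because its difference between imazalil and fenbuconazole was larger at 10 µM than at the 3 lowest doses, by 1.12 on the log2 scale (limma, adjusted p = 2.65e-04). It averaged 1.04 ± 0.10 with imazalil 10 µM, against 0.08 ± 0.12 with fenbuconazole 10 µM, relative to DMSO (SD, n = 3 each). No outlier test was made, since groups held 3 arrays. In a separate fit of the 13699 probe sets with no symbol or with several, 0 passed the threshold (limma), and 1046 had an unadjusted p under 0.05.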

How the results depend on the processing

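The 8 genes past the threshold between the compounds at 10 µM became 2 with only the groups compared in the fit, 4 with the array interquartile range as covariate, 1 with the same-numbered DMSO column subtracted and 14 among genes with a mean above 6. Joint quantile normalization gave 116 (41 higher, 75 lower) and no DMSO subtraction 149 (32 higher, 117 lower), against 4 higher and 4 lower, and each kept 6 of the 8. With the replicate block the count was 13 (4 higher, 9 lower) and all 8 were kept. The labels share only numbers: deviations of same-numbered arrays correlated at -0.098, 0.128 and -0.006, and not every array correlated best with its own number. Leaving out a replicate gave 0 to 13 genes: 1, 0 and 2 without replicate 1, 2 and 3 of every group, 9, 3 and 3 without imazalil replicate 1, 2 and 3, and 13, 4 and 4 without fenbuconazole replicate 1, 2 and 3. MCC passed in 19 of 20 alternatives, CYP1A1 in 17 of 21, SPON2 and ARID5B in 13 of 22 each, and TACC1, KCNJ10, NHEG1 and SLC17A5 in 10 of 22, 9 of 22, 9 of 20 and 7 of 22. HMGCS1 and LSS newly passed in 5 of 22 and 6 of 22, the replicate block among them (adjusted p = 0.0394 and 0.0458), and so did SGK1 and BNIP3L with the block (adjusted p = 0.0458 each).

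The single gene past the comparison with the lowest doses became 2 with the replicate block, the interquartile range or the mean of a gene's probe sets, 0 among genes with a mean above 4, and 0 to 3 when a replicate was left out. For the slope the count of 0 became 2 with the interquartile range and 1 with a mean above 4. At 3 µM the count of 0 became 2 with the replicate block, 1 with the interquartile range, 9 after joint normalization, 1 with the mean of probe sets, 11 without DMSO subtraction and 0 to 1 without a replicate. At 1 µM it became 6 after joint normalization and 10 without subtraction. Against DMSO, imazalil's 21 became 2 with only the groups compared, 36 with trended robust variance and 2 to 16 without a replicate. Fenbuconazole's 3 became 0 with only the groups compared, 10 with trended robust variance, 14 with a mean above 4, 10 after joint normalization, 9 with the mean of probe sets and 0 to 4 without a replicate.

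Signs turned for ARRDC4 (-0.050 after joint normalization, -0.004 without subtraction), for TACC1 (0.013) and CYP51A1 (0.016) with the mean of probe sets, and for CYP3A4 (0.091 without replicate 2, between -0.259 and 0.091 over fits without a replicate, and -0.477 without subtraction). CYP2B6 stood at -0.177 after joint normalization, -0.102 with the mean of probe sets, -0.234 without subtraction and between -0.204 and 0.159 without a replicate. Of the values for named genes under these alternatives, 864 kept direction and side of the threshold, 73 no longer passed, 42 newly passed and 12 changed sign. Leaving out single DMSO arrays and the floor of 6 were chosen after seeing the data. The slope could not be fitted on the groups compared alone, and the DMSO zero point has no alternative in the comparisons with DMSO. The cause of these shifts was not tested. Signals near background limit MCC, NHEG1, INSIG1, CYP3A4 and CYP2B6.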
